A study of Danio rerio with 23 samples.

Results

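The comparison described here is that of livers of HBx,src,p53- zebrafish with diet-induced obesity (DIO) that received Oligo-Fucoidan (OF) and 10 Gy of irradiation, against livers of the same line and diet that received 10 Gy alone. Its members were chosen by their labels and comprised 5 OF + 10 Gy arrays and 3 10 Gy arrays, which are 8 of the 23 arrays of the series. Each array measured the liver RNA of fish aged 6 months with 75212 probe sets of a zebrafish expression array. Oligo-Fucoidan is a low molecular weight fucoidan, a sulfated, fucose-rich polysaccharide of brown seaweed, and the study gave it to ask whether it protects liver from radiation.

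The methods describe the transgenic fish as female. Both groups carried 2 liver transgenes, for HBx, the X protein of hepatitis B virus, and for src, the tyrosine kinase. They also carried 1 mutant copy of p53 (p53-/+). The transgenes were driven by the fabp10a promoter, which is active in hepatocytes, so other liver cells carried them without being the intended site of expression. Both groups were overfed from 3 months of age for 2 months, at 83 mg of Artemia cysts per fish and day. The OF + 10 Gy fish received OF at 300 mg/kg by gavage for 1 month from the age of 4 months, were then irradiated, and were gavaged again afterwards, so the arrays cannot tell OF given before irradiation from OF given after it. The labels did not state whether each array holds a separate fish or a pool, so p-values measure only the spread between arrays. In the main fit that spread was estimated within the groups of all 23 arrays of the series. The number of arrays limits the precision of every value below.

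As background, the hepatocyte is a secretory cell. It makes most plasma proteins on ribosomes bound to the endoplasmic reticulum (ER), threads them through the translocon, attaches sugar chains, folds them with ER chaperones and ships them in COPII vesicles to the Golgi, while COPI vesicles bring escaped ER proteins back. When folding or amino acid supply falls short, the unfolded protein response and the transcription factor Atf4 raise chaperones, amino acid synthesis and aminoacyl-tRNA synthetases. The liver also makes cholesterol, keeps a circadian clock whose outputs include the PAR bZIP factors, and turns to fatty acid oxidation and glucose export in fasting.

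All signals are the deposited log2 values, so a difference of 1 stands for 2-fold, and a gene is given by its brightest probe set. A gene was called higher or lower in the OF + 10 Gy arrays where the adjusted p of limma (Benjamini-Hochberg over all probe sets) was under 0.05. The median log2 signal over all probe sets was between 2.46 and 2.58 on the 8 arrays. The correlation between arrays over all probe sets was 0.931 to 0.965 within OF + 10 Gy, 0.952 to 0.954 within 10 Gy and 0.918 to 0.952 between the groups. Hepatocyte markers were bright on all 8 arrays, with a list mean of 11.2 to 11.7 in OF + 10 Gy and 10.6 to 10.7 in 10 Gy, so the labelled tissue was borne out.

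OF + 10 Gy arrays 1 and 4 stood apart from the other 6 arrays in the yolk protein genes that oestrogen switches on in female liver. The signal of vtg2, a vitellogenin, was 3.69, 13.90, 13.85, 6.51 and 13.86 in OF + 10 Gy arrays 1 to 5, against 13.90, 13.91 and 13.93 in the 10 Gy arrays. The oestrogen receptor gene esr1 split the same way, with 5.63 and 4.89 in OF + 10 Gy arrays 1 and 4 and 9.85 to 10.73 on the other 6 arrays. The female sex given in the methods was thus not borne out by the vitellogenin signals of arrays 1 and 4. Whether those arrays came from female fish was not tested. None of the 11 genes of the vitellogenin and oestrogen list was called, and their median log2 fold change of -3.02 became -0.12 when arrays 1 and 4 were left out. The part of this split in the results below was not tested, so most list counts are also given without arrays 1 and 4, a setting chosen after the values were seen.

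Of 20916 genes, 526 were called higher in OF + 10 Gy (2.51%) and 687 were called lower (3.28%). The arrays of the groups did not overlap at all for 501 of the called higher and 661 of the called lower genes, while 3713 genes in all did not overlap (17.8%). The median log2 fold change over all genes was 0.00. With the looser criteria used in the study, 2-fold and an unadjusted p under 0.05, 933 genes were higher (4.46%) and 771 lower (3.69%), or 2298 (3.06%) and 1821 (2.42%) probe sets. By probe set the limma counts were 1078 higher (1.43%) and 1398 lower (1.86%), or 371 and 659 without OF + 10 Gy arrays 1 and 4. Single arrays also mattered: 411 probe sets were called higher and 742 lower without 10 Gy array 1, 366 and 761 without 10 Gy array 3, and 653 higher without OF + 10 Gy array 4.

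The gene with the lowest measured fold change among those called was psat1, which encodes the phosphoserine aminotransferase of serine synthesis. Its signal was 2.46, 2.37, 2.42, 2.57 and 2.25 in the OF + 10 Gy arrays, against 7.68, 8.53 and 7.41 in the 10 Gy arrays. The OF + 10 Gy values lay at or near the median of all probe sets on those arrays and far from any 10 Gy value. The measured log2 fold change was -5.46 ± 0.24 (SE), with an adjusted p of 1.59e-09 from limma, and with so dim a signal in OF + 10 Gy the size of the change is uncertain and may be understated.

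In the list of serine, proline and asparagine synthesis with atf4, 8 of 22 measured genes were called lower and none higher, with a list median of -1.13. The called genes were psat1, aldh18a1, asns, sesn2, mthfd2, atf4a, pycr1b and phgdh. For aldh18a1, which encodes the first enzyme of proline synthesis, the OF + 10 Gy arrays read 6.72, 6.89, 7.14, 6.59 and 6.90, against 8.74, 8.66 and 8.56 in 10 Gy, a log2 fold change of -1.81 ± 0.18 (SE, adjusted p = 6.6e-05). Asparagine synthetase, asns, read 7.42, 6.86, 7.06, 7.22 and 7.28 in OF + 10 Gy and 8.97, 8.99 and 8.93 in 10 Gy, a change of -1.79 ± 0.24. Neither gene overlapped between the groups. The transcription factor gene atf4a read 7.44, 7.79, 7.17, 7.81 and 8.22 in OF + 10 Gy, against 9.08, 9.34 and 8.77 in 10 Gy, again without overlap (-1.37 ± 0.24, adjusted p = 0.00456). phgdh, the first enzyme of serine synthesis, was dim, at 2.25 to 2.45 in OF + 10 Gy, below the medians of those arrays, and 2.42, 4.14 and 3.73 in 10 Gy, and its groups overlapped. The count was 7 without OF + 10 Gy arrays 1 and 4, and 7 or 8 when any single array was left out.

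The early secretory pathway held the largest blocks of lower genes. Of 32 measured genes of ER translocation and N-glycosylation, 23 were called lower and none higher, with a list median of -1.28. All 4 measured subunits of signal peptidase, the protease that removes signal sequences, were called lower. For spcs1 the OF + 10 Gy arrays read 6.50, 6.98, 6.69, 6.71 and 7.06, against 8.40, 8.09 and 8.48 in 10 Gy, a log2 fold change of -1.53 ± 0.18 (SE, adjusted p = 0.000202). For spcs2 they read 7.78, 8.15, 7.89, 7.65 and 8.24, against 9.81, 9.51 and 9.72. In both genes every OF + 10 Gy array lay below every 10 Gy array. Of 12 subunits of oligosaccharyltransferase, which transfers the sugar chain, 9 were called lower, among them ddost, rpn1, stt3a and stt3b, and the translocon genes sec61a1b, sec61b and sec61g were lower as well. The list count was 14 without 10 Gy array 1, 13 without 10 Gy array 3 and 13 without OF + 10 Gy arrays 1 and 4.

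Of 29 genes of COPI, COPII and Golgi transport, 20 were called lower and none higher, with a list median of -1.17. The COPI coat contributed 8 of its 9 measured genes, with log2 fold changes between -2.27 and -0.35 over all 9, and all 3 measured KDEL receptors, which retrieve ER residents, were called lower. The coat gene copb1 read 8.54, 7.73, 8.22, 8.34 and 8.04 in OF + 10 Gy, against 10.53, 10.28 and 10.52 in 10 Gy. The coat gene copa read 7.52, 7.13, 7.27, 7.11 and 7.16 in OF + 10 Gy, against 9.06, 8.90 and 9.09 in 10 Gy, a change of -1.77 ± 0.19 (SE, adjusted p = 0.000109). The gap between the groups exceeded the range within either group for both coat genes. The receptor gene kdelr2b read 8.01 to 8.64 in OF + 10 Gy and 9.64 to 10.14 in 10 Gy. The list count was 13 without 10 Gy array 3 and 13 without OF + 10 Gy arrays 1 and 4.

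Among ER chaperones and genes of the unfolded protein response, 19 of 38 were called lower and none higher, with a list median of -1.69. Mean levels of this list were 7.10 to 7.48 in the OF + 10 Gy arrays, against 8.64 to 9.34 in the 10 Gy arrays, and 32 of the 38 genes did not overlap between the groups. sdf2l1, an ER-resident partner of chaperone complexes, read 4.77, 5.27, 4.63, 5.06 and 5.36 in OF + 10 Gy, against 8.44, 8.03 and 8.52 in 10 Gy (-3.31 ± 0.59, adjusted p = 0.00504). sil1, the nucleotide exchange factor of BiP, read 5.57 to 6.27 in OF + 10 Gy and 8.48 to 9.73 in 10 Gy. xbp1, a transcription factor of the unfolded protein response, read 6.97 to 9.09 in OF + 10 Gy and 9.49 to 10.22 in 10 Gy, and was called lower at -1.90 ± 0.45. Other chaperone genes missed the threshold despite separate groups. hspa5, which encodes BiP itself, read 8.84, 8.21, 8.30, 8.27 and 8.88 in OF + 10 Gy against 11.95, 10.43 and 11.24 in 10 Gy (-2.71 ± 0.85, adjusted p = 0.0961). For hsp90b1 the values were 8.77 to 9.70 in OF + 10 Gy and 11.40 to 11.98 in 10 Gy (adjusted p = 0.0594). The spread in that test is shared with the other groups of the series. When the 8 arrays were fitted alone, 24 of the 38 genes were called. That fit did not raise counts in general: it called 728 probe sets higher and 874 lower, against 1078 and 1398. The chaperone count also moved with single arrays: it was 3, 11 and 5 without 10 Gy array 1, 2 or 3, and 8, 9, 9 and 8 without OF + 10 Gy array 1, 2, 3 or 4. It was 4 without OF + 10 Gy arrays 1 and 4, while the list median was -1.67 in that setting.

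**Figure D1:**
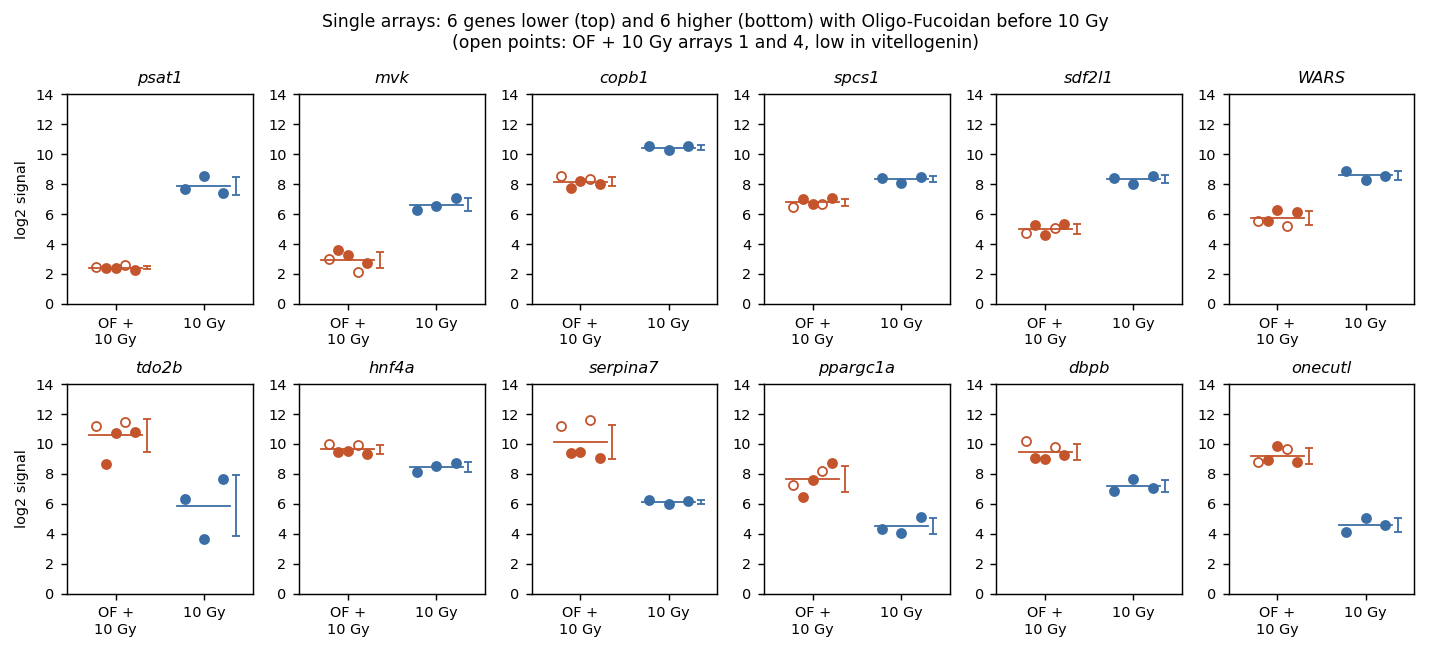
Log2 signal (vertical axis) of 6 genes that were lower and 6 that were higher in OF + 10 Gy, one point per array, with the OF + 10 Gy arrays left of the 10 Gy arrays and a line at each group mean. Open points are OF + 10 Gy arrays 1 and 4, which were low in vitellogenin. The psat1 points sit between 2.25 and 2.57 in OF + 10 Gy, against 7.41 to 8.53 in 10 Gy.

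Lists for the signal recognition particle, the ER membrane complex and ufmylation, a protein tagging system at the ER, and for aminoacyl-tRNA synthetases were added after the values were seen. In the first of these 11 of 20 genes were called lower, with 4 of 6 from the signal recognition particle, 3 of 8 from the ER membrane complex and 4 of 6 from ufmylation, and all 20 had a negative log2 fold change. The ufmylation gene ufc1, which encodes the conjugating enzyme of that system, read 3.08, 3.28, 2.81, 3.15 and 3.45 in OF + 10 Gy, against 5.84, 5.19 and 5.82 in 10 Gy (-2.47 ± 0.29, adjusted p = 0.000202). The groups were more than 1 log2 unit apart at their closest. That count was 7 without 10 Gy array 1, 7 without 10 Gy array 3 and 6 without OF + 10 Gy arrays 1 and 4.

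Aminoacyl-tRNA synthetases, which charge tRNAs with amino acids, split by compartment. Of 20 cytosolic members 16 were called lower and all 20 were negative, with a median of -1.61, whereas none of the 13 mitochondrial members was called and their median was 0.04. The called members include eprs and eprs1, and whether these symbols stand for 1 gene was not tested. The tryptophan enzyme WARS read 5.53, 5.55, 6.25, 5.22 and 6.17 in OF + 10 Gy, against 8.91, 8.29 and 8.54 in 10 Gy, a log2 fold change of -2.84 ± 0.26 (SE, adjusted p = 1.54e-05). The glutamine enzyme qars1 fell by 3.18 on the log2 scale, the largest change of the list, at 4.43 to 5.90 in OF + 10 Gy and 7.19 to 9.01 in 10 Gy. No array of either gene crossed into the range of the other group. Over the 33 synthetases the count of lower genes was 10 without 10 Gy array 1 and 10 without OF + 10 Gy arrays 1 and 4. The difference between the compartments was described after it was seen and has no test.

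Proteasome subunits gave a smaller change, with 14 of 46 called lower and a median of -0.65. The regulatory particle, which recognises and unfolds substrates, contributed 11 of its 23 genes, against 3 of 22 in the core particle that cuts them. psmd3 of the regulatory particle read 7.14, 7.30, 7.19, 7.71 and 7.12 in OF + 10 Gy, against 8.61, 8.45 and 8.40 in 10 Gy (-1.20 ± 0.21, adjusted p = 0.00385). The proteasome count rested on 2 of the 10 Gy arrays: it was 2 without array 1 and 2 without array 3, and it was 9 without OF + 10 Gy array 2 and 10 without OF + 10 Gy arrays 1 and 4. When the 8 arrays were fitted alone it was 7. In heat shock proteins and chaperonins 4 of 31 were called lower (hspe1, hspa13, stip1 and hspd1), of which hspe1 and hspd1 form the mitochondrial chaperonin, and this count was 2 without 10 Gy array 1 or without 10 Gy array 3 and 3 without OF + 10 Gy arrays 1 and 4.

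None of the 64 cytosolic ribosomal protein genes was called, although 62 had a negative log2 fold change (median -0.37). At an unadjusted p under 0.05, 19 of them passed, beside 11719 of all 75212 probe sets. Their mean level was 9.63 and 9.78 in OF + 10 Gy arrays 1 and 4, the arrays low in vitellogenin, against 10.47 to 10.69 on the other 6 arrays, and the list median was -0.05 without those 2 arrays. In the respiratory chain and ATP synthase 3 of 107 genes were called lower and none higher, a share close to the 3.28% of all genes called lower. The count of lower genes was 0 without 10 Gy array 1, without 10 Gy array 3 or without OF + 10 Gy arrays 1 and 4, and 1 without OF + 10 Gy array 1, 2 or 3.

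Sterol synthesis had the lowest median of the lists that hold called genes. Of 24 genes of cholesterol synthesis and LDL uptake 10 were called lower and none higher, with a median of -2.57, and 21 did not overlap between the groups. The mean level of the list was 5.71, 7.46, 7.63, 5.82 and 6.70 in OF + 10 Gy arrays 1 to 5, against 8.88, 8.95 and 9.29 in the 10 Gy arrays. OF + 10 Gy arrays 1 and 4 were the lowest, and the other 3 OF + 10 Gy arrays still lay below all 10 Gy arrays. mvk, the mevalonate kinase, read 3.03, 3.57, 3.27, 2.13 and 2.76 in OF + 10 Gy, against 6.25, 6.52 and 7.08 in 10 Gy, a log2 fold change of -3.67 ± 0.26 (SE, adjusted p = 7.03e-07). idi1, the isopentenyl diphosphate isomerase, read 7.20, 8.37, 8.50, 7.12 and 7.67 in OF + 10 Gy and 10.58, 11.02 and 11.13 in 10 Gy. Both genes were separated by at least 2 log2 units.

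Other sterol genes depended on OF + 10 Gy arrays 1 and 4. sqlea, a squalene epoxidase gene, read 3.23, 8.03, 8.61, 2.62 and 6.10 in OF + 10 Gy and 10.33, 9.81 and 11.07 in 10 Gy, and missed the threshold at -4.69 ± 1.38 (adjusted p = 0.074). hmgcra, which encodes the rate-limiting HMG-CoA reductase, read 7.35, 11.45, 11.47, 7.16 and 10.26 in OF + 10 Gy and 11.67 to 11.86 in 10 Gy (adjusted p = 0.522). The sterol count was 5, 5 and 3 without 10 Gy array 1, 2 or 3, 6 without OF + 10 Gy array 1 or 4, and 3 without both of these, with a list median of -1.94 in that last setting. Beyond the list, aacs, which makes acetoacetyl-CoA for sterol synthesis in the cytosol, read 4.76 to 6.56 in OF + 10 Gy and 9.91 to 10.57 in 10 Gy (-4.63 ± 0.91).

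Further genes among the 10 lowest were pmm2, the phosphomannomutase that feeds N-glycosylation, at -4.21 ± 0.53, the endosomal sorting gene vps37ba at -4.10 ± 0.46, the kinase gene pim2, at 4.69 to 6.82 in OF + 10 Gy and 9.53 to 9.83 in 10 Gy, and fkbp11, a prolyl isomerase of the secretory pathway, at -3.67 ± 0.70. pmm2 read 3.07 to 5.39 in OF + 10 Gy and 8.12 to 8.87 in 10 Gy. eevs and si:ch1073-13h15.3 completed the list with lss and mvk. fkbp11 and eevs were lowest in OF + 10 Gy arrays 1 and 4, at 6.02 and 6.41 for fkbp11 against 8.94 to 9.68 in the other 3 OF + 10 Gy arrays.

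**Figure D2:**
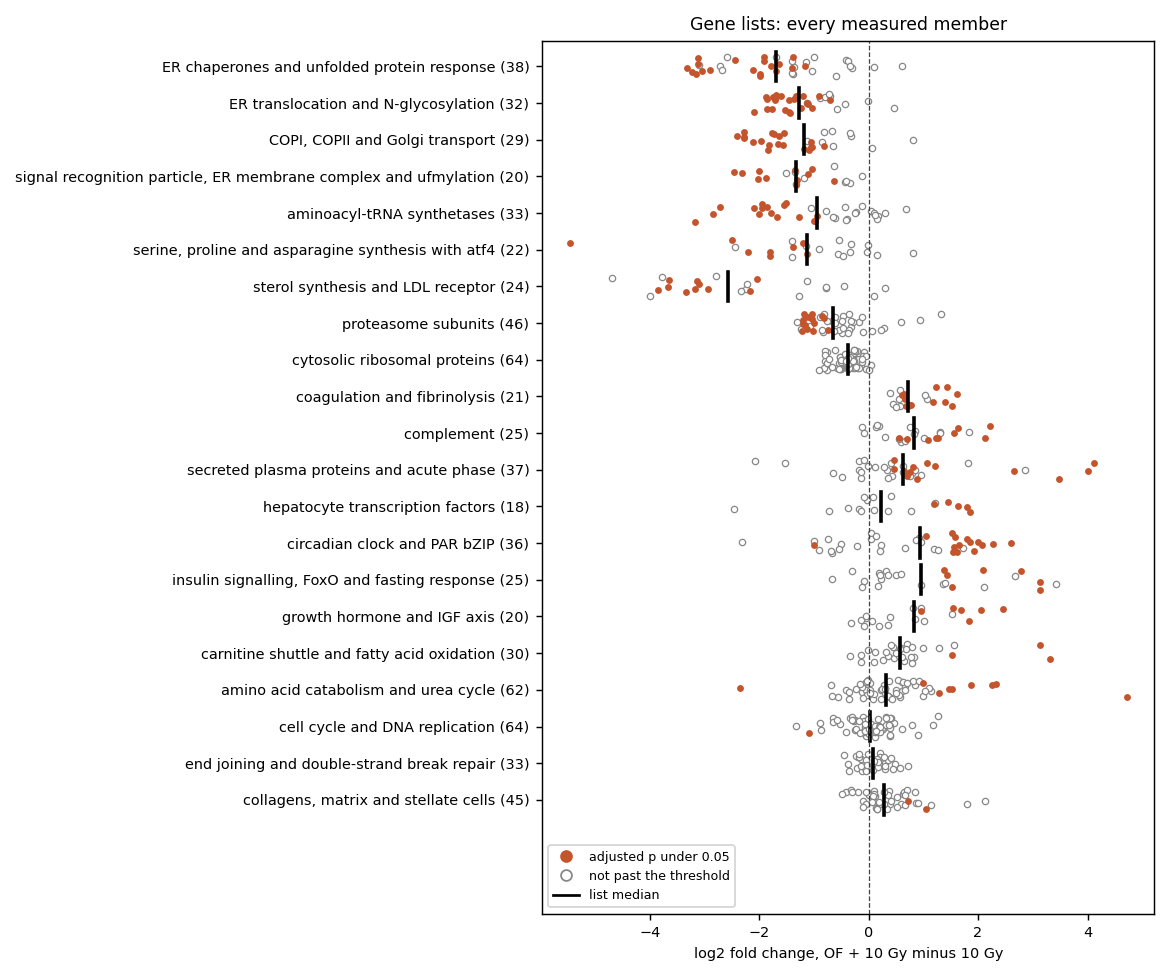
Log2 fold change of OF + 10 Gy minus 10 Gy (horizontal axis) for every measured gene of selected gene lists, with the number of genes in brackets. Filled points passed an adjusted p of 0.05, open points did not, and the black line is the list median, which ran down to -2.57 for sterol synthesis and was -1.69 for ER chaperones.

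Many genes for proteins that the liver exports were higher. In coagulation and fibrinolysis 12 of 21 genes were called higher and none lower, all 21 log2 fold changes were positive (median 0.72) and 20 genes did not overlap between the groups. The mean level of the list was 10.43 to 11.03 in the OF + 10 Gy arrays, against 9.73 to 9.91 in the 10 Gy arrays. OF + 10 Gy arrays 1 and 4 were the highest, and the lowest OF + 10 Gy array still exceeded every 10 Gy array. f5, which encodes coagulation factor V, read 11.46, 10.75, 11.05, 11.67 and 10.99 in OF + 10 Gy, against 9.99, 9.53 and 9.18 in 10 Gy, a log2 fold change of 1.62 ± 0.28 (SE, adjusted p = 0.00436). serpind1, heparin cofactor II, read 11.45 to 12.31 in OF + 10 Gy and 10.28 to 10.73 in 10 Gy. f2 and fgg, for prothrombin and a fibrinogen chain, were also called higher. The count was 5 without 10 Gy array 1, 5 without 10 Gy array 3, 7 without OF + 10 Gy array 1 or 4 and 3 without both of these, with a median of 0.52. When the 8 arrays were fitted alone it was 3.

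In the complement list 9 of 25 genes were called higher and none lower (median 0.84). cfi, the protease that cleaves C3b and C4b, read 8.80, 8.26, 7.91, 9.08 and 8.05 in OF + 10 Gy, against 6.63, 7.15 and 6.81 in 10 Gy (1.55 ± 0.25, adjusted p = 0.00237). c3a.2, a C3 gene, read 11.10 to 11.84 in OF + 10 Gy and 11.01, 9.05 and 8.24 in 10 Gy, so that 10 Gy array 1 came close to the OF + 10 Gy range. Of 7 genes of the terminal complex, which forms pores in membranes, 3 were called higher (c8a, c8g and c9) and all 7 were positive. The complement count was 3 without 10 Gy array 2, 3 without 10 Gy array 3 and 1 without OF + 10 Gy arrays 1 and 4. When the 8 arrays were fitted alone it was also 1.

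Secreted plasma and acute phase proteins included 13 of 37 genes called higher and none lower (median 0.62). serpina7, the thyroxine-binding globulin in mammals, read 11.18, 9.42, 9.45, 11.59 and 9.09 in OF + 10 Gy, against 6.25, 6.01 and 6.16 in 10 Gy, a log2 fold change of 4.01 ± 0.58 (SE, adjusted p = 0.00108). OF + 10 Gy arrays 1 and 4 were the highest, and the gap to the 10 Gy arrays was wider than the range within OF + 10 Gy. The pentraxin genes crp1, crp2 and crp3 and the fetuin genes ahsg1 and ahsg2 were among the higher genes, and a further pentraxin, apcs, read 10.05, 9.24, 9.10, 10.15 and 9.77 in OF + 10 Gy, against 7.44, 4.80 and 5.23 in 10 Gy (3.83 ± 0.47). itih3a.1, an inter-alpha-trypsin inhibitor chain, read 11.29 to 11.89 in OF + 10 Gy and 10.06 to 10.51 in 10 Gy. The count was 5 without 10 Gy array 1, 4 without 10 Gy array 3, 7 without OF + 10 Gy array 1 or 4 and 4 without both. When the 8 arrays were fitted alone it was 5. In 13 alpha-2-macroglobulins, a list added after the values were seen, 3 were called higher (a2m2c, a2m2f and a2m2b), against 0 without 10 Gy array 3 and 1 without OF + 10 Gy arrays 1 and 4.

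The genes that rose most were cbln6 (5.21 ± 1.16), apof (5.15 ± 0.89), tdo2b (4.71 ± 0.85) and onecutl (4.63 ± 0.63). apof, for apolipoprotein F, read 9.83, 7.63, 7.80, 10.01 and 7.24 in OF + 10 Gy, against 2.91, 4.81 and 2.33 in 10 Gy. onecutl, a gene of the onecut transcription factor family, read 8.80, 8.91, 9.87, 9.68 and 8.76 in OF + 10 Gy, against 4.09, 5.03 and 4.60 in 10 Gy (adjusted p = 0.000676). It was high on all 5 OF + 10 Gy arrays, whereas apof and cbln6 were highest on OF + 10 Gy arrays 1 and 4. The remaining genes of the 10 that rose most were sema4gb, si:ch211-171h4.3, crp2, zgc:92749, serpina7 and apcs.

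Of 18 hepatocyte transcription factors 5 were called higher (hnf4a, pparab, nr1i2, pparaa and cebpd) and none lower, with a median of 0.23. hnf4a, the nuclear receptor that maintains hepatocyte identity, read 9.99, 9.45, 9.52, 9.95 and 9.32 in OF + 10 Gy, against 8.10, 8.51 and 8.73 in 10 Gy, 2.3-fold higher (SE of the log2 fold change 0.24, adjusted p = 0.00987). nr1i2, the pregnane X receptor, read 8.69 to 9.83 in OF + 10 Gy and 6.99 to 8.10 in 10 Gy. Both receptor genes were separated between the groups. This count was 1 without 10 Gy array 1, 2 without 10 Gy array 3, 3 without OF + 10 Gy array 1, 3 or 4 and 0 without OF + 10 Gy arrays 1 and 4.

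**Figure D3:**
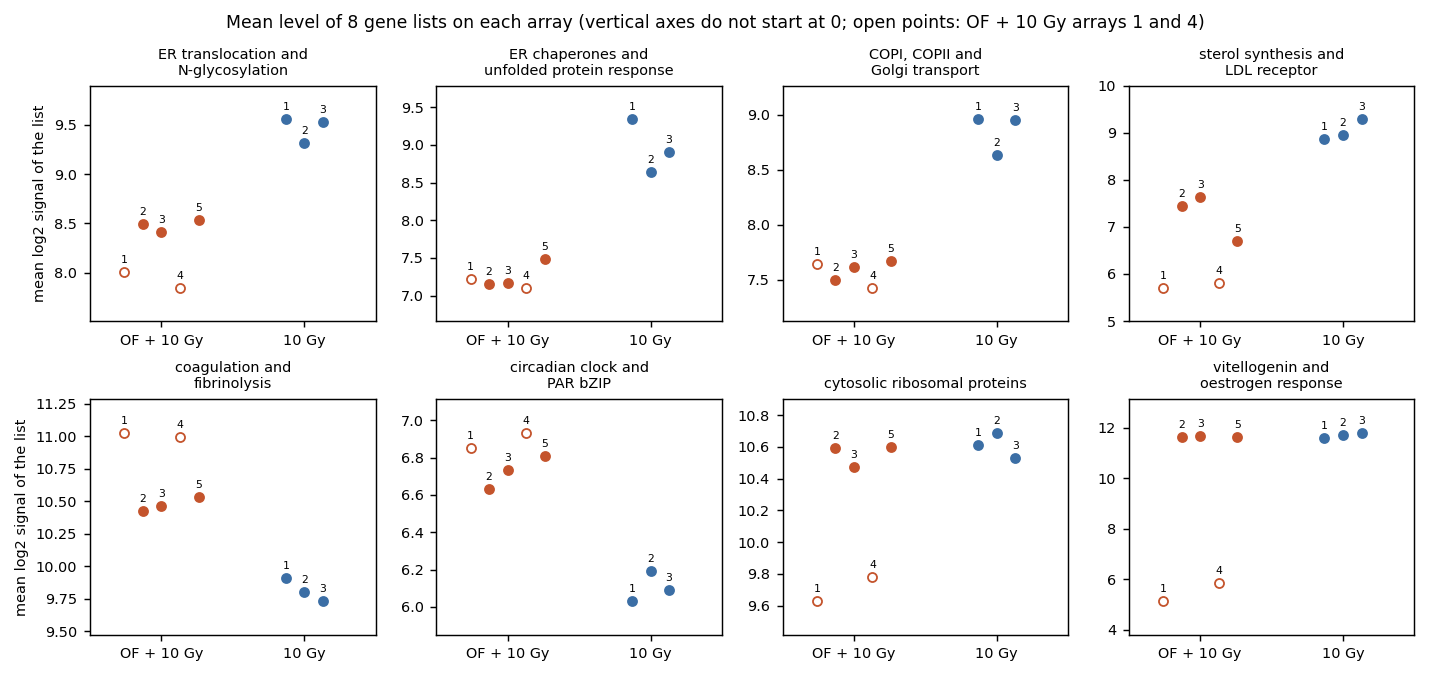
Mean log2 signal (vertical axis, not starting at 0) of the measured genes of 8 lists on each array, with OF + 10 Gy left of 10 Gy and OF + 10 Gy arrays 1 and 4 as open points. The COPI, COPII and Golgi list lay between 7.43 and 7.67 on the OF + 10 Gy arrays, against 8.63 to 8.96 on the 10 Gy arrays. For the ribosomal proteins only OF + 10 Gy arrays 1 and 4 were low, at 9.63 and 9.78.

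The circadian clock and PAR bZIP list had 14 of 36 genes called higher and 1 lower (cry3b), with a median of 0.94, and 26 of its genes did not overlap between the groups. The repressor nr1d1, which encodes Rev-erb alpha, read 9.51, 9.38, 9.65, 9.83 and 10.04 in OF + 10 Gy, against 6.89, 6.89 and 7.43 in 10 Gy, a log2 fold change of 2.61 ± 0.60 (SE, adjusted p = 0.0228). The output factor dbpb read 10.20, 9.05, 9.03, 9.80 and 9.27 in OF + 10 Gy and 6.89, 7.64 and 7.04 in 10 Gy (2.28 ± 0.39), and tefa, another PAR bZIP gene, read 7.98 to 8.27 in OF + 10 Gy and 6.17 to 6.80 in 10 Gy. All 3 were high on every OF + 10 Gy array, including those low in vitellogenin.

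Of the 11 period and cryptochrome genes, not all of which are clock repressors, 6 were called higher and 1 lower. The higher genes were cry5, cry2, per2, per1a, cry1a and cry1b, and the lower one was cry3b. Of the 6 PAR bZIP genes 3 were called higher and all were positive. In the Rev-erb and ciart families 3 of 7 genes were called higher and none lower. Their log2 fold changes ran from -2.31, the lowest of the clock list, to 2.61, with 6 positive and 1 negative. In contrast, none of the 6 genes of the activating arm was called, and 5 of them were negative. bmal1a read 5.02, 4.49, 3.70, 4.25 and 4.54 in OF + 10 Gy and 4.93, 5.48 and 5.49 in 10 Gy (-0.90 ± 0.25, adjusted p = 0.06), and bmal1b read 4.49 to 5.21 in OF + 10 Gy and 5.84 to 6.03 in 10 Gy (adjusted p = 0.0764). The time of day at which livers were taken was not given in the sources used here, so sampling time and OF cannot be told apart for these genes. The count of higher clock genes was 6 without 10 Gy array 1, 4 without 10 Gy array 3 and 4 without OF + 10 Gy arrays 1 and 4.

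**Figure D4:**
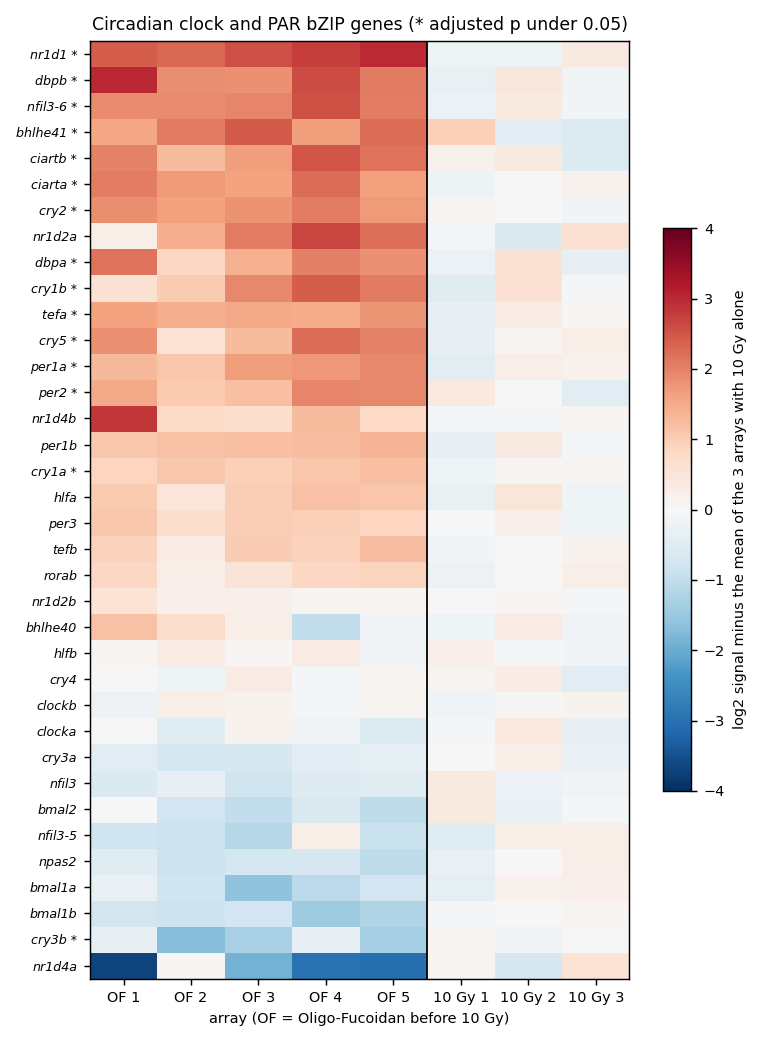
Log2 signal of each circadian clock and PAR bZIP gene on each array minus the mean of the 3 arrays with 10 Gy alone (colour), genes ordered by log2 fold change and arrays in columns with OF + 10 Gy on the left. Asterisks mark the 15 genes with an adjusted p under 0.05; nr1d1 (2.61) and dbpb (2.28) lead the list and bmal1b (-0.99) is near its end.

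In the carnitine shuttle and fatty acid oxidation list 3 of 30 genes were called higher (ppargc1a, crata and cpt1b) and none lower, while 26 were positive (median 0.58). cpt1b, a carnitine palmitoyltransferase that brings fatty acids into mitochondria, read 10.25, 9.84, 10.40, 10.72 and 10.25 in OF + 10 Gy, against 6.54, 7.64 and 6.77 in 10 Gy (3.31 ± 0.88, adjusted p = 0.0484). ppargc1a, the coactivator of oxidative metabolism, read 7.23, 6.49, 7.60, 8.22 and 8.76 in OF + 10 Gy and 4.34, 4.07 and 5.15 in 10 Gy (3.14 ± 0.60). Neither gene overlapped between the groups. The count was 1 without 10 Gy array 1 or 3, without OF + 10 Gy array 1, 2, 3 or 4, or without OF + 10 Gy arrays 1 and 4 together.

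A list of insulin signalling, FoxO and fasting genes, added after the values were seen, had 7 of 25 called higher and none lower (median 0.96). pik3r1, a regulatory subunit of PI3 kinase, read 7.88, 8.15, 8.46, 8.65 and 8.71 in OF + 10 Gy, against 6.53, 7.08 and 6.92 in 10 Gy (1.53 ± 0.25, adjusted p = 0.00278). sirt1, an NAD-dependent deacetylase, read 7.24 to 8.39 in OF + 10 Gy and 6.07 to 6.84 in 10 Gy, and the autophagy kinase gene ulk2 read 8.56 to 10.80 in OF + 10 Gy and 5.61 to 7.67 in 10 Gy. All 3 genes were separated between the groups. pck1, the cytosolic gluconeogenic phosphoenolpyruvate carboxykinase, varied within OF + 10 Gy at 6.46, 6.65, 10.07, 10.19 and 10.13, against 4.83, 4.24 and 6.75 in 10 Gy, and missed the threshold (adjusted p = 0.192). The count was 4 without 10 Gy array 1, 10 Gy array 3 or OF + 10 Gy array 4, and 3 without OF + 10 Gy arrays 1 and 4.

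The growth hormone and IGF axis, another added list, had 6 of 20 genes called higher and none lower (median 0.83). They were the receptor gene ghra, its signal transducer stat5a, the ligands igf2a and igf2b, and the carriers igfbp5b and igfals. ghra read 8.60, 8.48, 8.35, 8.58 and 8.54 in OF + 10 Gy, against 7.08, 7.14 and 6.26 in 10 Gy (1.68 ± 0.37, adjusted p = 0.0176), and igf2b read 9.06 to 10.18 in OF + 10 Gy and 6.30 to 7.53 in 10 Gy. Every OF + 10 Gy value of ghra lay above every 10 Gy value. The count was 3 without 10 Gy array 1, 1 without 10 Gy array 3, 3 without OF + 10 Gy array 5 and 1 without OF + 10 Gy arrays 1 and 4.

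Lipogenesis and triglyceride storage moved in both directions, with 3 genes called higher (gpat3, me1 and lpin1a) and 2 called lower (gpam and aclya) of 31. gpam, the mitochondrial glycerol phosphate acyltransferase, read 6.64, 7.54, 5.93, 5.71 and 6.64 in OF + 10 Gy, against 8.91, 8.49 and 9.44 in 10 Gy (-2.45 ± 0.48, adjusted p = 0.00931), whereas gpat3, an acyltransferase of the ER, read 7.71 to 9.14 in OF + 10 Gy and 6.34 to 7.26 in 10 Gy. The fatty acid synthase gene fasn read 6.09 to 7.21 in OF + 10 Gy and 8.48 to 8.77 in 10 Gy, without overlap. It did not pass in the main fit (-2.11 ± 0.87, adjusted p = 0.233), whose spread is shared with the other groups of the series. fasn was past the threshold in 2 of 19 alternatives, the fits of the 8 arrays alone and of the 12 arrays of batch 2 alone. Both directions were lost when 10 Gy array 3, or OF + 10 Gy arrays 1 and 4 together, were left out. The count of higher genes was 0 without 10 Gy array 1, and 1 without 10 Gy array 2, OF + 10 Gy array 1 or OF + 10 Gy array 4, while 1 lower gene was called without any one of 10 Gy arrays 1 and 2 and OF + 10 Gy arrays 1, 4 and 5.

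In amino acid catabolism and the urea cycle 8 of 62 genes were called higher and 1 lower (gpt2). tdo2b, which starts tryptophan breakdown, read 11.20, 8.69, 10.74, 11.50 and 10.77 in OF + 10 Gy, against 6.34, 3.63 and 7.63 in 10 Gy (4.71 ± 0.85, adjusted p = 0.0054), and the later enzymes of that route afmid and kmo were higher too. tdo2a, its paralogue, read 11.23 to 11.73 in OF + 10 Gy and 10.74 to 11.14 in 10 Gy and was not called (adjusted p = 0.114). gpt2, the mitochondrial alanine transaminase, read 4.23 to 5.69 in OF + 10 Gy and 7.01 to 7.19 in 10 Gy. The higher count was 4 without 10 Gy array 1 or 2, 3 without 10 Gy array 3, 5 without OF + 10 Gy array 1 or 3, 4 without OF + 10 Gy array 4, and 4 without OF + 10 Gy arrays 1 and 4. In glycolysis, gluconeogenesis and glycogen 4 of 50 were called higher (ldhbb, g6pc1a.1, eno3 and slc37a4a) and 1 lower (pkma), with 2 higher without 10 Gy array 1, 1 without 10 Gy array 3 and 0 without OF + 10 Gy arrays 1 and 4. The lower call was lost without any one of 10 Gy arrays 1, 2 and 3 and OF + 10 Gy arrays 1, 2 and 4.

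Of 21 genes of iron and haem handling 3 were called higher (ncoa4, bmp6 and hmox1b) and 1 lower (alas1). The higher count was 1 without 10 Gy array 1 and 1 without OF + 10 Gy arrays 1 and 4, and the lower count was 0 in that last setting. alas1, the first enzyme of haem synthesis in liver, read 8.54, 10.22, 9.74, 9.39 and 9.34 in OF + 10 Gy, against 11.58, 11.17 and 11.69 in 10 Gy (-2.04 ± 0.39, adjusted p = 0.00807), and urod, a later enzyme of the same route, read 5.23 to 5.50 in OF + 10 Gy and 7.11 to 7.84 in 10 Gy (-2.10 ± 0.26). hmox1b, which degrades haem, was higher at 8.64, 7.68, 9.03, 8.94 and 4.56 in OF + 10 Gy, against 3.61, 4.27 and 4.23 in 10 Gy, with OF + 10 Gy array 5 close to the 10 Gy range. The export pumps abcb11b for bile salts (1.29 ± 0.31) and abcb4 for phospholipid (1.06 ± 0.27) were called higher, which makes 2 of 18 genes of bile acid synthesis and export. Of 26 apolipoprotein and lipoprotein genes cetp (2.66 ± 0.65) and lpla (1.06 ± 0.26) were higher and mttp, which loads lipid onto apolipoprotein B, was lower (-0.57 ± 0.15), a call that was lost without 10 Gy array 1 or 3 or any one of OF + 10 Gy arrays 2 to 5 and was past the threshold in 6 of 19 alternatives. With single arrays left out the bile count and that of higher lipoprotein genes were 0 to 2 each, and both were 0 without 10 Gy array 1 or 3. Without OF + 10 Gy arrays 1 and 4 the bile count was 1 and no lipoprotein gene was called. Of 85 cytochrome P450 genes 3 were called higher (cyp1d1, cyp8b1.2 and cyp1a). Of 51 conjugating transferases 3 were called higher and 1 lower, beside 2.51% higher and 3.28% lower of all genes. Without OF + 10 Gy arrays 1 and 4 these were 1 cytochrome P450 gene and 2 higher and no lower transferases, and 5 transferases were higher without OF + 10 Gy array 2. From the 8 arrays alone no transferase was called, and 5 cytochrome P450 genes were called higher. Of 78 aldehyde, alcohol, aldo-keto and short-chain dehydrogenases 6 were called lower (aldh18a1, rdh10b, akr1a1b, hsd17b7, dhrs11b.2 and rdh12) and 1 higher (hsd20b2). Their median was 0.21, with 49 positive and 29 negative. The lower count was 2 to 6 with single arrays left out and 3 without OF + 10 Gy arrays 1 and 4. Of 34 genes of Nrf2, glutathione and thioredoxin defence hmox1b alone was called, and not without those arrays.

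The list of genes that the study followed by qPCR also holds paralogues of some of them, among them tdo2b beside tdo2a. Of its 24 measured genes hnf4a and the paralogue tdo2b were called higher and none lower, against 2.51% of all genes called higher. The hnf4a call was lost without 10 Gy array 1 and without OF + 10 Gy arrays 1 and 4. asgrl1, an asialoglycoprotein receptor gene, read 9.65 to 10.08 in OF + 10 Gy and 9.62 to 9.92 in 10 Gy. The lipogenic factor srebf1 read 8.59 to 9.47 in OF + 10 Gy and 10.09, 10.09 and 10.11 in 10 Gy (-1.04 ± 0.31, adjusted p = 0.0804), and col1a1a, a collagen chain of fibrosis, read 4.29 to 4.63 in OF + 10 Gy and 4.66 to 5.17 in 10 Gy (adjusted p = 0.802). Other genes of these kinds went the other way without being called in the main fit. Under the alternatives run, the log2 fold change was 0.03 to 0.52 for ccn2a (ctgfa in the study), 0.04 to 0.63 for hpse and 0.97 to 1.13 for pparg. pparg was past the threshold in 2 of 19 alternatives, the fits of the 8 arrays alone and of the 12 arrays of batch 2 alone. From the 8 arrays alone 3 genes of the list were called higher and 2 lower. Of the whole list 14 genes were positive and 10 negative. The transgene driver and targeted genes gave no call among 8. fabp10a, whose promoter drives the transgenes, read 13.29, 13.13, 13.20, 13.33 and 12.93 in OF + 10 Gy, against 11.90, 12.86 and 12.47 in 10 Gy (0.77 ± 0.21, adjusted p = 0.0596). src read 5.56 to 7.28 in OF + 10 Gy and 5.17 to 6.43 in 10 Gy, a difference of 0.32 ± 0.40, and whether its probes also match the transgene was not tested. Probes for HBx were not analysed here.

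Of 31 p53 targets and apoptosis genes ddb2 was called higher and sesn2 lower, shares close to the 2.51% and 3.28% of all genes. The higher count was 0 without 10 Gy array 3 or OF + 10 Gy array 4, 2 without OF + 10 Gy array 1 and 3 without OF + 10 Gy array 2. It was 1 without OF + 10 Gy arrays 1 and 4. Calls of ddb2 itself were lost without 10 Gy array 2 or 3, without OF + 10 Gy array 4 and without OF + 10 Gy arrays 1 and 4 together. ddb2, which recognises damaged DNA, read 6.50, 6.38, 6.40, 7.02 and 6.96 in OF + 10 Gy, against 5.43, 4.81 and 4.92 in 10 Gy (1.60 ± 0.37, adjusted p = 0.0217), and sesn2, also a target of Atf4, read 3.99 to 5.15 in OF + 10 Gy and 5.99 to 8.03 in 10 Gy. mdm2, the p53 ubiquitin ligase, read 6.21 to 7.28 in OF + 10 Gy and 5.76 to 6.02 in 10 Gy and was not called (0.69 ± 0.52). None of 33 genes of end joining and double-strand break repair was called (median 0.08). At an unadjusted p under 0.05 there were 3, beside 11719 of all 75212 probe sets. Of 64 cell cycle genes kif23 alone was called, lower, at -1.09 ± 0.27. That call was lost without 10 Gy array 1 or 3, without OF + 10 Gy array 1, 4 or 5 and without OF + 10 Gy arrays 1 and 4 together, and the list count was 0 to 2 with single arrays left out. The mean level of the cell cycle list was 4.00 on OF + 10 Gy array 2. It was 2.75 to 2.97 on the other OF + 10 Gy arrays and 2.92 to 3.23 on the 10 Gy arrays. The repair list was also highest on OF + 10 Gy array 2, at 4.49. None of 23 interferon genes was called (7 at an unadjusted p under 0.05, beside the same 11719 of 75212 probe sets). In the JAK/STAT list stat5a was called of 13, a call lost without 10 Gy array 3 and without OF + 10 Gy arrays 1 and 4, and stat3 read 7.63 to 8.55 in OF + 10 Gy and 6.67 to 8.52 in 10 Gy. Of 45 collagen, matrix and stellate cell genes tgfb1a (1.04 ± 0.24) and sparc (0.72 ± 0.18) were called higher, a count that was 0 without 10 Gy array 1 or 3, 4 without OF + 10 Gy array 5, and 1 without 10 Gy array 2, without OF + 10 Gy array 1, 2 or 4 and without OF + 10 Gy arrays 1 and 4. In that list 35 genes were positive and 10 negative, with a median of 0.28.

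Whole liver was measured, so fewer cells of a type and less RNA per cell cannot be told apart. Markers of other cell types gave at most 2 calls a list: 1 of 32 for neutrophils and macrophages (lyz, lower), 2 of 22 for endothelium (tie1 and egfl7, higher), 1 of 20 for erythrocytes (urod, lower), 1 of 9 for adipocytes (lpla, higher), 1 of 15 for skeletal muscle (acta1a, lower), 1 of 36 for ovary (wee2, lower), and none of 16 for lymphocytes, 14 for biliary epithelium, 14 for intestine, 16 for endocrine and 25 for exocrine pancreas. Over all genes 2.51% were called higher and 3.28% lower, and single calls in lists of this size are near those shares. The OF + 10 Gy signals of lyz, acta1a and wee2 lay below the medians of their arrays. Most of these calls depended on single arrays. The endothelial count was 0 without 10 Gy array 1, OF + 10 Gy array 1 or OF + 10 Gy array 3 and 1 without any one of the other arrays apart from 10 Gy array 2. The lpla call was lost without 10 Gy array 1 or 3 or OF + 10 Gy array 1, 3, 4 or 5, the acta1a call without 10 Gy array 1 or 2, and the lyz call without 10 Gy array 1 or 3 or OF + 10 Gy array 1, 2, 4 or 5, while 2 ovary genes were lower without 10 Gy array 1. Without OF + 10 Gy arrays 1 and 4 urod of the erythrocyte list was the only one of these still called. It is also the haem synthesis gene given above. Of the 20 erythrocyte genes 14 were positive, with a list median of 0.37, or -0.13 without those arrays. Mean levels of the neutrophil and macrophage list were 3.35 to 4.05 in OF + 10 Gy and 3.41 to 4.06 in 10 Gy. The exocrine pancreas list ranged from 4.97 to 7.48 in OF + 10 Gy and from 6.22 to 8.13 in 10 Gy, so pancreatic RNA was present in unequal amounts within both groups, and its part in the lower secretory pathway genes was not tested. Of the 26 hepatocyte markers 6 were higher (median 0.62), against 2 without 10 Gy array 1, 0 without 10 Gy array 3, 3 without OF + 10 Gy array 1 and 1 without OF + 10 Gy arrays 1 and 4.

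The same treatment and dose was given to wild-type fish on a normal diet (6.9 mg of Artemia cysts per day) in the same batch, with 2 OF + 10 Gy and 2 10 Gy arrays. Genotype and diet differ together in this comparison, and the labels do not give the sex of the WT fish, so sex may differ as well and cannot be told apart from them. The effect of OF in HBx,src,p53- DIO fish minus that in WT fish passed the test as positive for 1055 genes (5.04%) and as negative for 366 genes (1.75%), or 1914 (2.54%) and 769 (1.02%) probe sets. Within the WT pair itself 550 genes were called higher (2.63%) and 1372 lower (6.56%) in OF + 10 Gy. There 32 of 36 ovary genes and 50 of 64 cell cycle genes were lower in OF + 10 Gy (list medians -4.68 and -3.01) and vtg2 read 3.96 and 3.18 in OF + 10 Gy against 13.71 and 13.89 in 10 Gy. Accordingly 31 ovary and 46 cell cycle genes had a positive difference while none of them was called higher in HBx,src,p53- DIO fish. In the vitellogenin and oestrogen list 8 of 11 genes were called lower within the WT pair. The WT arrays with OF thus also differed from those without it in vitellogenin and ovary signals. That split and OF cannot be told apart in the WT effects, nor in the differences from WT given here and below. cdk1, a mitotic kinase, had log2 fold changes of 0.17 in HBx,src,p53- DIO and -4.69 in WT.

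Among the secretory lists, 12 of 29 COPI, COPII and Golgi genes, 4 of 32 genes of ER translocation and N-glycosylation and 1 of 38 ER chaperone genes had a negative difference from WT. The median differences of these lists were -1.46, -0.95 and -1.67, so the low ER chaperone count does not show a like effect in WT. copb1 had a log2 fold change of -2.27 in HBx,src,p53- DIO and 0.53 in WT, a difference of -2.80 with an adjusted p of 0.000853. mvk had -3.67 in HBx,src,p53- DIO and -0.38 in WT, a difference of -3.29, and WARS had -2.84 in HBx,src,p53- DIO and -0.33 in WT. For psat1 the change was -2.26 in WT, so that psat1 was lower in both lines, with a measured difference of -3.2 between the effects. gpt2 and aldh18a1 fell in WT as well, by 3.09 and 2.04 on the log2 scale, without a called difference. In the clock list 7 genes had a positive and 3 a negative difference, with tefa at 1.57 in HBx,src,p53- DIO and -0.61 in WT. In the respiratory chain 12 of 107 genes had a negative difference, and 9 of the 107 were called higher within WT. The largest negative differences were those of cyb5b (-5.45), fabp7a (-5.24) and cusr (-4.79), and cusr had changed only in WT, by 5.11.

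The other comparison with obese transgenic fish was HBx,src DIO OF + 40 Gy (4 arrays) against HBx,src DIO 40 Gy (3 arrays), without the p53 mutation. Batch, dose and p53 genotype differ together between that pair and the 10 Gy pair and cannot be told apart. The difference of the effects was positive for 25 genes (0.12%) and negative for 331 genes (1.58%), or 85 (0.113%) and 562 (0.747%) probe sets. Within the 40 Gy pair 442 genes were called higher (2.11%) and 47 lower (0.225%) in OF + 40 Gy. The difference was negative by the test for 11 of 32 genes of ER translocation and N-glycosylation and 10 of 29 of COPI, COPII and Golgi transport. It was so for 14 of 33 aminoacyl-tRNA synthetases and 9 of 20 genes of the signal recognition particle, ER membrane complex and ufmylation list. In serine, proline and asparagine synthesis the count was 5 of 22. The medians of those lists were 0.39, 0.17, 0.28, 0.28 and 0.34 in HBx,src DIO fish at 40 Gy. By the test, 1 of 38 ER chaperone genes and 2 of 24 sterol genes had a negative difference. Their median differences were nonetheless -2.03 and -3.14, against -1.68, -1.60, -1.47, -1.66 and -1.47 in the lists above, in the same order. The low counts therefore do not show that the effects on ER chaperone and sterol genes were alike. psat1 had a log2 fold change of -5.46 at 10 Gy and 0.03 at 40 Gy, a measured difference of -5.49 (adjusted p = 6.66e-07), whose size rests on the dim OF + 10 Gy signals of that gene. asns had -1.79 at 10 Gy and 0.84 at 40 Gy.

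No clock gene differed between these comparisons by the test. tefa rose in both, by 1.57 at 10 Gy and 1.29 at 40 Gy, as did dbpb, by 2.28 and 1.98, and per2, by 1.52 and 1.51. hnf4a was called higher in both too, with a difference of -0.04 ± 0.35 (SE) between the effects, and so was sirt1, by 1.37 at 10 Gy and 1.16 at 40 Gy. The difference between the effects on tefa was 0.28 ± 0.39 and that on dbpb 0.30 ± 0.57 (SE), and differences within that error were not detectable with these arrays. The largest positive differences were si:dkey-238c7.12 (3.79), which had changed only in HBx,src DIO at -3.35, upp2 (3.64), a uridine phosphorylase gene at 3.68 in HBx,src,p53- DIO and 0.04 in HBx,src DIO, and apcs (3.61). The most negative after psat1 were pim2 (-4.56) and pisd (-4.07), a gene of phosphatidylethanolamine synthesis.

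**Figure D5:**
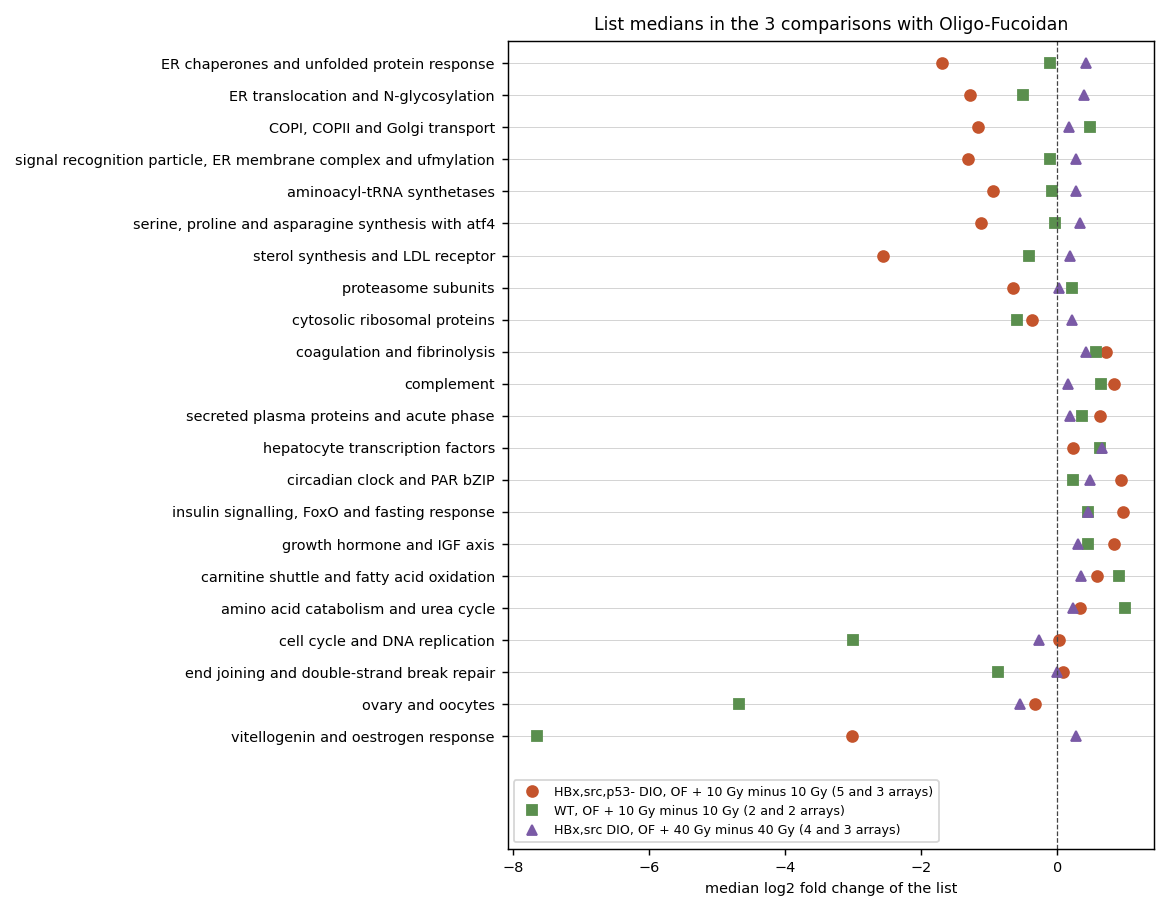
Median log2 fold change (horizontal axis) of each gene list in the 3 comparisons of OF with irradiation against irradiation alone, in HBx,src,p53- DIO fish at 10 Gy (circles), WT fish at 10 Gy (squares) and HBx,src DIO fish at 40 Gy (triangles). ER chaperones had medians of -1.69, -0.10 and 0.42, and the ovary list had -0.33, -4.68 and -0.54.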

How the data were processed

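Liver RNA was hybridised to Affymetrix zebrafish arrays. The authors deposited 1 table of log2 signals, 75212 probe sets by 23 arrays; the submitters' processing notes name Transcriptome Analysis Console, and its version, normalization and joint or separate handling of the batches were not given there or in the methods. Probe sets were named through the platform annotation (30358 with 1 symbol, 1015 with several, 43839 with none), giving 20916 genes, each by its brightest probe set over all arrays. Genes without a match were not analysed here.

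Tests used limma 3.58.1 in R 4.3.3 (lmFit and eBayes with 8 group means over 23 arrays, 15 residual degrees of freedom, Benjamini-Hochberg over all probe sets, threshold 0.05) and were tested on simulated data first. The study's own thresholds, 2-fold with an unadjusted p under 0.05, were an alternative, as were 8 arrays alone, the 12 arrays of batch 2 alone, a replicate block, median centring, quantile normalization, a filter on dim probe sets, a trended prior, array weights, 1 probe set per gene and leaving out each array. Lists have no test of their own, only counts and medians beside those of all genes.

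The comparison, 46 gene lists and the rule for named genes were chosen with earlier results of these data known; 5 more lists, the subgroups of lists and the setting without OF + 10 Gy arrays 1 and 4 were chosen after the values were seen. Genes named were those the study measured by qPCR and paralogues of these, the transgene driver and targeted genes, the 10 largest called changes in each direction without overlap, up to 3 called members of each list by smallest p, and the 3 largest called differences in each direction; others were named because the text turned on them after their values were seen. No 2 arrays held identical values.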

Additional observations from a re-analysis of the deposited data

Results flagged for a closer look

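In 9 of the named genes a single OF + 10 Gy array lay far from the other 4 (gap over range above 0.71, Dixon's critical value for 5 arrays, which chance passes in about 1 in 20 groups; 150 genes were examined). These were array 2 for ccne1 (3.13), cdk1 (3.46), fabp7a (5.15), tdo2b (8.69) and upp2 (9.34), array 1 for fabp10b (3.52) and gpc3 (6.38), array 4 for ncoa4 (9.92) and array 5 for casp8 (6.65), all as log2 signals. The other 4 OF + 10 Gy arrays read 1.70 to 2.12 for cdk1 and 7.61 to 7.79 for fabp7a.

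The effect of OF in HBx,src,p53- DIO fish differed by limma's test from that in WT fish at 10 Gy in 40 named genes. Of the secretory and protein synthesis genes, the differences were -2.51 for WARS, -1.85 for lars1b, -2.03 for copa, -2.80 for copb1, -1.46 for kdelr2b, -1.40 for spcs1, -1.66 for spcs2, -2.62 for ufc1, -2.22 for ufsp2, -2.41 for hspa13, -1.93 for hspe1, -1.50 for psmd2 and -1.39 for psmd3. Among metabolic genes they were -3.20 for psat1, -1.63 for asns, -3.29 for mvk, -4.03 for idi1, -2.95 for alas1, -2.11 for urod, -1.82 for mttp, -0.81 for akr1a1b, -0.86 for atp5mf, -5.45 for cyb5b, -5.24 for fabp7a, -4.79 for cusr and -3.96 for si:ch1073-13h15.3. The clock and plasma protein genes ciarta (2.75), dbpb (2.75), tefa (2.18) and itih3a.1 (1.25) and ddb2 (3.13) and fyna (1.71) had positive differences. Positive differences in ccne1 (5.17), cdk1 (4.86), cdk2 (2.93), kif23 (2.76), wee2 (3.04), si:ch1073-263o8.2 (8.20), si:dkey-229d11.5 (8.33) and zgc:171750 (8.16) stood beside WT livers in which oocyte and cell cycle genes were lower in the OF + 10 Gy arrays than in the 10 Gy arrays.

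The effect differed from that in HBx,src DIO fish at 40 Gy in 29 named genes. The negative differences were -2.63 for WARS, -2.61 for lars1b, -2.36 for yars1, -1.52 for copa, -2.15 for copb1, -1.76 for kdelr2b, -1.69 for spcs1, -2.16 for spcs2, -1.94 for ufc1, -2.71 for ufsp2, -2.01 for emc1, -1.59 for psmd14, -5.49 for psat1, -2.64 for asns, -2.20 for aldh18a1, -2.62 for gpt2, -3.86 for mvk, -3.19 for gpam, -2.44 for urod, -0.97 for mttp, -3.79 for fabp7a, -3.60 for pmm2, -4.56 for pim2, -4.07 for pisd, -3.56 for vps37ba and -4.03 for si:ch1073-13h15.3. The positive ones were 3.61 for apcs, 3.64 for upp2 and 3.79 for si:dkey-238c7.12.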

How the results depend on the processing

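Of the 115 named genes that were called, all kept their sign and 39 stayed called under every alternative run. Against 1078 probe sets higher and 1398 lower, the counts were 211 and 379 with a replicate block, 371 and 659 without OF + 10 Gy arrays 1 and 4, 2298 and 1821 with the study's thresholds, and 728 and 874 from the 8 arrays alone; leaving out 1 array gave 366 to 1140 higher and 742 to 1345 lower. With 1 probe set per gene 859 genes were higher, against 526. The share of probe sets called higher was lower under quantile normalization over all arrays, at 754 higher and 1329 lower, and within each batch, at 894 and 1666. Whether the replicate numbers pair the arrays was not settled. Deviations of same-numbered OF + 10 Gy and 10 Gy arrays correlated at -0.041, -0.00076 and 0.018. Differently numbered arrays gave -0.075 to 0.11. So few correlations cannot exclude pairing. With the block, OF + 10 Gy arrays whose number no 10 Gy array shares added nothing to the fold change. That fit had 6 residual degrees of freedom, against 15 in the main fit. Differences from WT, 1914 positive and 769 negative, were 1358 and 434 with the block, 3551 and 3223 with the study's thresholds and 1174 positive without dim probe sets; 1 array left out gave 1715 to 1901 and 597 to 861, and 561 genes were negative with 1 probe set per gene. Differences from HBx,src DIO at 40 Gy, 85 positive and 562 negative, were 7 and 69 with the block and 1549 and 2770 with the study's thresholds; 1 array left out gave 35 to 109 and 305 to 569, and with 1 probe set per gene 77 and 634 genes. The cause of these shifts was not tested.

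Genes far from the threshold changed sign: asgrl1 with the block (-0.021) and without OF + 10 Gy arrays 1 and 4 (-0.060), mlxip with the block (-0.077), quantile normalization over all arrays (-0.055) or within batches (-0.052) and without those arrays (-0.088), plpp1a with the block (0.010) and without them (0.23), and src with the block (-0.0068) and without them (-0.15). With 1 array left out the ranges were -0.027 to 0.12 for asgrl1, -0.15 to 0.29 for cdk1, -0.040 to 0.14 for mlxip, -0.29 to 0.12 for plpp1a, -1.14 to 0.19 for si:ch1073-263o8.2, -0.067 to 0.78 for si:dkey-238c7.12, -0.065 to 0.57 for src and -0.999 to 0.11 for zgc:171750. The called genes lyz, wee2, acta1a, cyp8b1.2 and phgdh had a dimmer group below the array medians, and psat1 was at them, so these fold changes may be understated.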
